A study of Bos taurus with 20 samples.

Results

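The genes described here are 9 cattle genes of natural killer and cytotoxic cells: the surface receptors NCR1, KLRK1, KLRD1 and CD244, the pore-forming protein PRF1, the granule proteases GZMA, GZMB and GZMK, and the granule membrane protein NKG7. They were chosen by symbol, and each symbol was matched to its Entrez identifier with the NCBI cattle gene table, giving 9 of the 37063 identifiers in the count files. Maternal whole blood came from 20 recipient cows at gestational day 63, each carrying a female beef-breed foetus from an embryo that had been produced in vitro with X-sorted semen and transferred. All cows belonged to 1 group, with 1 library per cow, and the variable of interest was the birth weight (BW) of the calf. The study's methods describe lactating dairy recipients while its sample overview gives Angus. The overview gives recipient ages from 1 to 9 years, but neither source gives the age of each cow, so age was not in the fits.

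Natural killer cells and cytotoxic T cells kill infected or altered cells by releasing granules that hold perforin, which opens the target membrane, and granzymes, which then enter and cleave proteins of the target. Activating receptors such as NKp46 (NCR1) and NKG2D (KLRK1) start this release, and receptors of the CD94 (KLRD1) family tune it by reading MHC class I on other cells. In pregnancy these cells are of interest because the mother carries a foetus that is partly or, after embryo transfer, wholly foreign to her.

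The libraries held 24632077 to 39892111 counts (median 33412740). The lowest chi-square per degree of freedom over the 190 pairs of libraries was 12.2, so no pair was a repeat of the other within counting noise. Calf BW was between 30 and 72.5 kg, with a mean of 45.0 ± 10.1 kg (SD, n = 20). Every marker list of blood cell types had detected genes, including T cells (10 of 10 genes past the count filter), B cells (7 of 7), neutrophils (5 of 6) and erythroid cells (6 of 6). In whole blood, fewer cells of a type and less RNA per cell cannot be told apart. Levels are given as CPM, counts scaled to a fixed library total, after TMM scaling, which corrects for library size and composition. They are not per length, so levels are compared between cows and never between genes.

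Of the 9 genes, 8 passed the filter of at least 10 counts in at least 5 cows. The exception, GZMA, a granzyme that cleaves after basic residues, was listed at 0 in all 20 cows. In the gene table (ARS-UCD2.0) GZMA lies wholly within the span of CDC20B, as do a second granzyme A entry (gzmA) and GPX8, both also listed at 0. This position was shared by many genes at 0: of 1248 protein-coding genes nested in another gene, 1151 (92.2%) had no counts in any cow, against 2488 of 20418 (12.2%) of the others. RPL35A, ARF6 and PSMD13, named after their values were seen, are nested genes that nearly all cells use, and they were listed at 0 as well. The 0 of GZMA is therefore given only as a listed value, and no level or limit is drawn from it. CDC20B itself had between 386 and 1844 counts per cow. Whether reads of GZMA were dropped or counted to CDC20B was not tested, and how reads over overlapping genes were assigned is not given in the sources used here.

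Among the receptors, NCR1 (Entrez 369024), the activating receptor widely used to define natural killer cells in cattle, ranged from 26.1 CPM in the cow of the 30 kg calf to 63.9 CPM in the cow of the 49.5 kg calf, with a median of 48.9. KLRK1 (404058), which recognises ligands induced by stress, ranged from 7.58 CPM (43 kg calf) through a median of 12.5 to 21.9 CPM (46 kg calf). KLRD1 (444877), which pairs with NKG2 receptors, ranged from 33.2 CPM (54 kg calf) through a median of 49.2 to 72.1 CPM (32 kg calf). The cows that were lowest and highest differed between these 3 receptors. Their coefficients of variation (CV) were 22.6%, 25.3% and 18.5%, against 2.63%, 4.96% and 2.52% from counting, and the median CV of all 16269 genes in the correlations was 15.6%.

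CD244 (513468), a receptor for CD48 that natural killer cells share with other leukocytes, was the steadiest member. It ranged from 211 CPM in the cow of the 36 kg calf to 335 CPM in the cow of the 56 kg calf, with a median of 254 and a CV of 13.5%. The highest cow was 1.59 times the lowest. CD244 overlaps LY9 and LOC788736 in part in the gene table, and LY9 had between 618 and 1317 counts per cow.

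Among the granule genes, PRF1 (369025), perforin, ranged from 31.2 CPM (35 kg calf) through a median of 48.0 to 79.4 CPM (32 kg calf), with the cow of the 47.4 kg calf next at 78.5. NKG7 (513006) ranged from 11.1 CPM (43 kg calf) through a median of 17.98 to 28.7 CPM (32 kg calf). GZMB (281731), the granzyme that cleaves after aspartate, ranged from 26.2 CPM (35 kg calf) through a median of 46.4 to 64.0 CPM (32 kg calf). The same cow, that of the 32 kg calf, was therefore the highest for all 3 of these genes. Their CVs were 26.9%, 27.0% and 17.8%. For GZMB the lowest cow stood apart, since the next lowest had 39.1 CPM (49.5 kg calf).

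GZMK (528871), a granzyme of memory T cells and some natural killer cells in other species, was the least deeply counted. It had between 13 and 114 counts per cow and ranged from 0.365 CPM (43 kg calf) through a median of 1.62 to 3.35 CPM (47.4 kg calf). Its CV was 45.5%, of which counting alone gives 15.1%, and the highest cow was 9.17 times the lowest. KLRK1 and KLRD1 belong to gene families with similar sequences, as do the granzymes, and how reads that fit several genes were treated is not given, so their values carry that uncertainty.

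**Figure D1:**
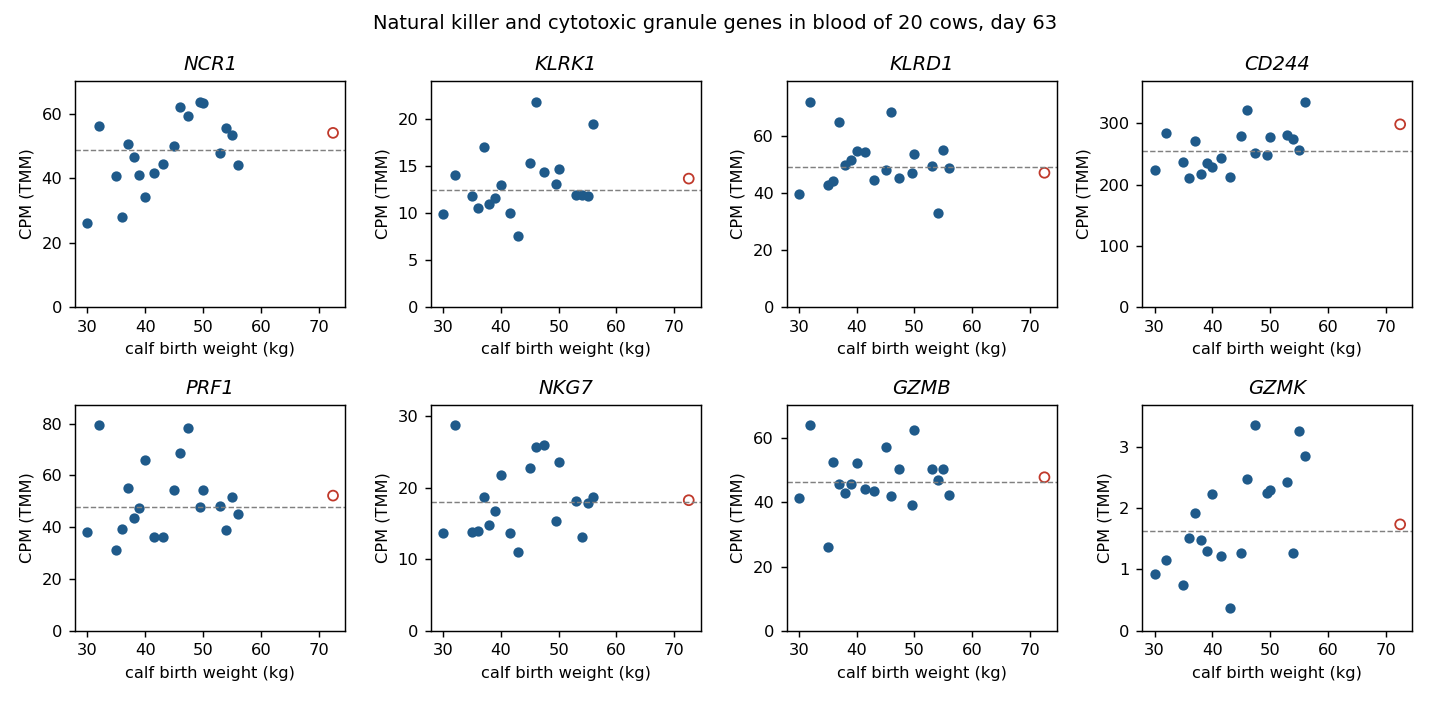
Level of the 8 counted genes in CPM (vertical axes, from 0) against calf BW in kg (horizontal axes), with 1 point per cow, the cow of the 72.5 kg calf as an open circle and the median as a dashed line. The cow of the 32 kg calf is the highest for PRF1, NKG7, GZMB and KLRD1.

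Some cows were low or high for most of the genes. The cow of the 30 kg calf was among the 5 lowest cows for all 8 genes, and those with calves of 35 and 43 kg were among the 5 lowest for 6 of 8 each. At the other end, the cow of the 46 kg calf was among the 5 highest for 7 of 8, and the cow of the 32 kg calf for 6 of 8. Above the median for 8 of 8 was the cow whose calf weighed 50 kg, and for 7 of 8 were those with calves of 32, 37, 46 and 72.5 kg. The low cows therefore had calves of up to 43 kg, whereas the high cows included that of one of the lightest calves. With total counts per cow, Pearson correlations of the genes ran from -0.14 (CD244) to 0.40 (NCR1, permutation p = 0.0792), and none passed (two-sided permutation tests, Benjamini-Hochberg adjustment over all genes). The cow of the 30 kg calf, low for all 8, also had the lowest total, 24632077, and that of the 32 kg calf had 38560375. Against this order, the low cow of the 43 kg calf had 36052997 and the high cow of the 46 kg calf 32879071.

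The 8 genes varied together across cows to different degrees. Pearson correlations of log2(CPM + 1) over the 20 cows were positive for 28 of 28 pairs, from 0.14 to 0.93, with a median of 0.49 (median Spearman correlation 0.54). Over all 132332046 pairs of genes the median was -0.0016, and 3.89% of those pairs exceeded 0.49. For each member, p-values came from 100000 two-sided permutations of the cows and were adjusted by the Benjamini-Hochberg method over the 16268 other genes, so a pair has 2 adjusted values, of which the larger is given.

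Both values were below 0.05 for 2 of the 28 pairs. The closest pair was PRF1 and NKG7, a pore-forming protein and a membrane protein of the same granules, at a Pearson r of 0.93 (permutation p = 1e-05, which is the smallest possible here, adjusted p = 0.0163) and a Spearman rho of 0.94 (permutation p = 1e-05). Without the 2 cows farthest from the median of PRF1 the correlation was 0.89, and without those farthest for NKG7 it was 0.91. The ratio of PRF1 to NKG7 in CPM stayed between 2.25 and 3.26, with a CV of 9.79%, while PRF1 alone varied 2.54 times between the extreme cows and NKG7 2.60 times.

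The other such pair joined the receptors KLRK1 and CD244, at a Pearson r of 0.82 (permutation p = 3e-05, adjusted p = 0.0444) and a Spearman rho of 0.81 (permutation p = 6e-05). Without the 2 cows farthest from the median it was 0.76 by KLRK1 and 0.71 by CD244. Both genes had their 2 highest values in the cows that bore calves of 46 and 56 kg. Leaving out any 1 cow kept it between 0.783 and 0.846, and kept that of PRF1 and NKG7 between 0.909 and 0.940.

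KLRK1 and NKG7 followed at 0.74 (permutation p = 0.00012, Spearman 0.83 with permutation p = 3e-05), with adjusted p = 0.0407 among the genes tested against NKG7 and 0.061 among those tested against KLRK1. Without the 2 farthest cows the Pearson correlation was 0.63 by KLRK1 and 0.73 by NKG7. KLRD1 and NKG7 gave 0.64 (permutation p = 0.00194, adjusted p = 0.607, Spearman 0.61 with permutation p = 0.00513), and 0.50 or 0.55 without the 2 farthest cows. The last of these did not pass the adjustment.

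**Figure D2:**
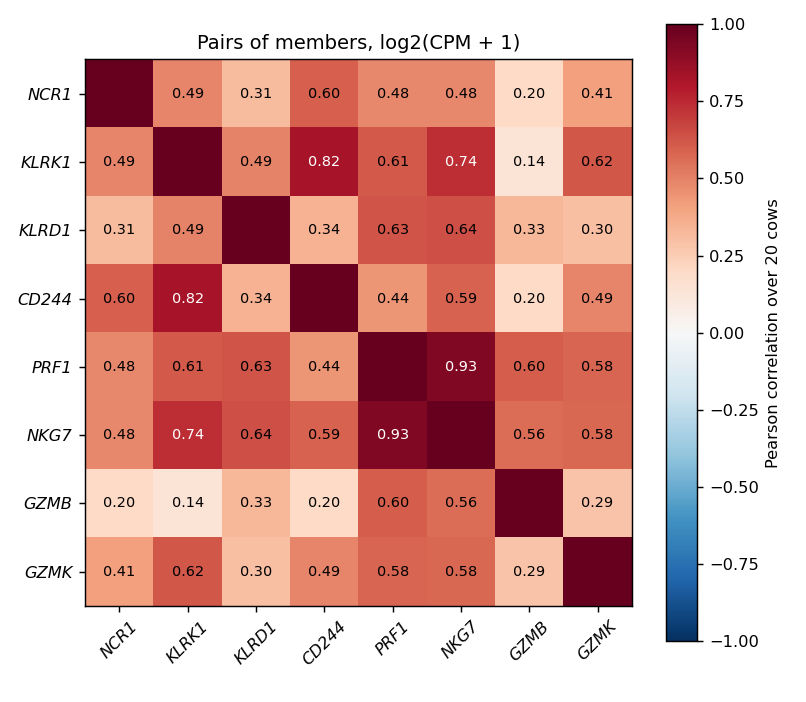
Pearson correlation of log2(CPM + 1) for each pair of the 8 counted genes over 20 cows (red positive, blue negative, value in each cell). All 28 pairs are positive, and PRF1 with NKG7 is the highest at 0.93. The palest cells are those of GZMB with KLRK1, NCR1, CD244 and GZMK.

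GZMB had the lowest correlations with the other members. The 4 lowest pairs all held GZMB: with KLRK1 0.14 (permutation p = 0.557, Spearman 0.22 with permutation p = 0.341), with NCR1 0.20 (permutation p = 0.395, Spearman 0.19 with permutation p = 0.435), with CD244 0.20 (permutation p = 0.398, Spearman 0.18 with permutation p = 0.440) and with GZMK 0.29 (permutation p = 0.219, Spearman 0.17 with permutation p = 0.477). Without the 2 cows farthest from the median of GZMB these were 0.082, 0.081, 0.060 and 0.21. Without those farthest for the other gene of each pair they were 0.23, 0.29, 0.41 and 0.27. The adjusted p-values of these pairs were between 0.897 and 0.940. The cow of the 46 kg calf, highest for KLRK1, had less GZMB than the median cow, and the ratio of GZMB to KLRK1 ran from 1.92 to 5.74 (CV 25.7%). GZMB and PRF1, which act together in killing, gave 0.60 (permutation p = 0.00413, adjusted p = 0.841, Spearman 0.56 with permutation p = 0.0113). That correlation was 0.33 without the 2 cows farthest for GZMB and 0.53 without those farthest for PRF1. Whether these correlations differ from those of the other pairs was not tested.

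**Figure D3:**
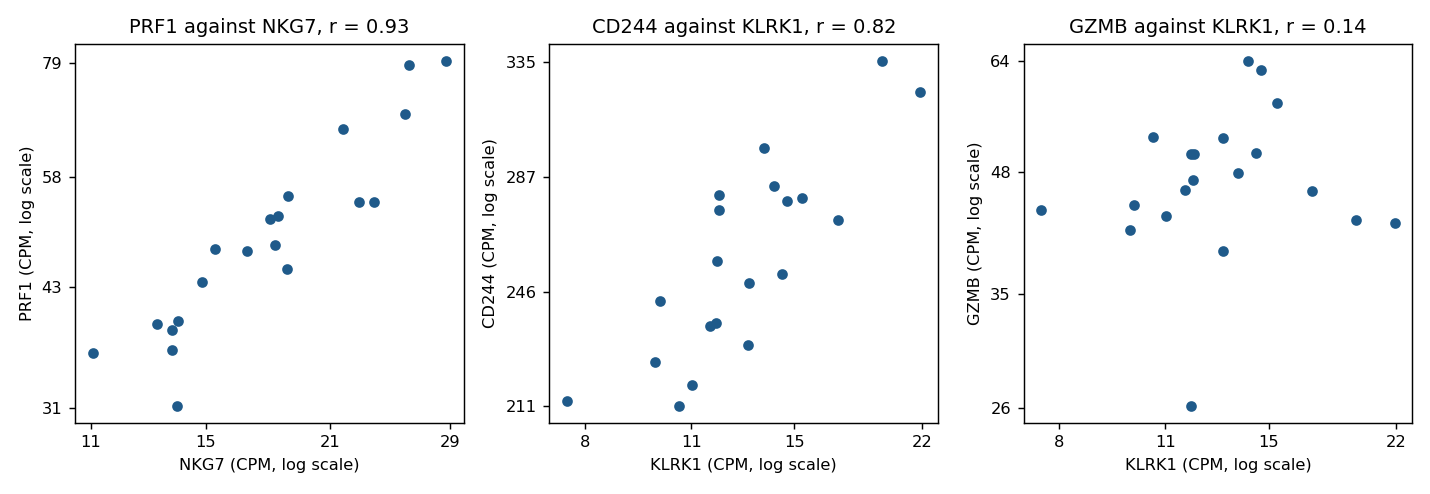
Level in CPM of 3 pairs of genes in the 20 cows, with both axes on a log scale and 1 point per cow. PRF1 and NKG7 lie close to a line (r = 0.93), KLRK1 and CD244 somewhat less (r = 0.82), and GZMB against KLRK1 shows no line (r = 0.14).

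Beyond the 9 genes, the number of genes with a positive correlation at adjusted p below 0.05 differed by member. It was 626 of 16268 for CD244 (3.85%), 65 for NKG7 (0.4%), 45 for PRF1 (0.277%) and 12 for KLRK1 (0.0738%). NCR1, KLRD1, GZMB and GZMK had 0 (0% each) by the same permutation test. The 2 called pairs stand against these shares, of which that of CD244 is the highest.

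The genes most like each member were named by the highest Pearson correlation. For PRF1 these were IL2RB (0.90), the shared receptor chain for IL-2 and IL-15, then LOC132343386 (0.89), a long non-coding RNA, and PRKCH (0.88), a protein kinase C of lymphocytes. For NKG7 they were LOC132343386 (0.90), IL2RB (0.89) and CCL5 (0.88), a chemokine stored by cytotoxic lymphocytes. All 6 had permutation p = 1e-05, adjusted p of 0.0163 with PRF1 and 0.0108 with NKG7, Spearman correlations of 0.87 to 0.90, and 0.81 to 0.88 without the 2 farthest cows. PRF1 and NKG7 thus shared 2 of their 3 closest genes.

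CD244 was closest to STXBP5 (0.92), a regulator of vesicle fusion, IMPACT (0.91), a regulator of translation, and NHSL2 (0.91), each with permutation p = 1e-05, adjusted p = 0.00191, Spearman correlations of 0.89 to 0.92 and 0.84 to 0.87 without the 2 farthest cows. KLRK1 was closest to MOCS2, GARIN5A and LOC101905029 (0.84 each, permutation p = 1e-05, adjusted p = 0.0232, Spearman 0.81, 0.79 and 0.94). None of the closest genes of these 2 receptors was in the lists of killer cell genes used below.

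NCR1 was closest to TARP (0.86, permutation p = 1e-05, adjusted p = 0.0813, Spearman 0.85, and 0.74 without the 2 farthest cows), an entry of the T cell receptor gamma locus that the table also names TRGC1, and then to the pseudogenes LOC505856 and LOC789551 (0.79 each). KLRD1 was closest to IAH1 (0.82, adjusted p = 0.163), CDC20B (0.77, adjusted p = 0.289) and LOC104973145 (0.77, adjusted p = 0.244). GZMB gave 0.75 with both BBLN (adjusted p = 0.163) and LOC786126 (adjusted p = 0.399), and for GZMK the closest were NDFIP2 (0.80), OXA1L (0.78) and LOC112446831 (0.76), with adjusted p between 0.325 and 0.330. None of the genes named for these 4 members passed the permutation test after adjustment.

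The 15 genes with the highest mean correlation over the 8 members were, in order, LOC112449352 (mean 0.64), LOC101905029 (0.64), LOC132344827 (0.63), IL2RB (0.63), CD8A (0.62), RILPL1 (0.62), CDC20B (0.61), PRKCH (0.60), LOC100336869 (0.60), LOC100848575 (0.60), IGFBP7 (0.60), CD8B (0.60), FARP2 (0.59), CCL5 (0.59) and ANXA13 (0.59). CD8A and CD8B encode the CD8 co-receptor of cytotoxic T cells, and LOC100336869 is also named NKG2A, the partner of CD94. CDC20B, the gene that spans GZMA in the table, had correlations of 0.79 with PRF1 (permutation p = 5e-05, adjusted p = 0.0301, Spearman 0.71 with permutation p = 0.0008, 0.69 without the 2 farthest cows), 0.73 with NKG7 (adjusted p = 0.0592) and 0.37 with GZMB (adjusted p = 0.897).

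Marker genes of T cells correlated with the granule genes PRF1 and NKG7. PRF1 correlated at adjusted p below 0.05 with 4 of 10 T cell markers, CD8A (0.81, adjusted p = 0.0191), CD3D (0.80, 0.0244), CD8B (0.78, 0.0385) and LCK (0.77, 0.026), and NKG7 with 5 of 10, CD3D (0.82, 0.0108), CD8A (0.78, 0.0212), CD8B (0.76, 0.0339), LCK (0.72, 0.0414) and CD6 (0.71, 0.0468). Each also correlated with WC1-8, 1 of 5 counted gamma delta T cell markers (0.77 with both). CD3E, a chain of the T cell receptor complex, gave 0.71 with PRF1 (adjusted p = 0.0774) and 0.64 with NKG7 (0.129), whereas CD4, the co-receptor of helper T cells, gave 0.023 and 0.084. NCR1 and KLRD1 gave 0.65 and 0.73 with CD8A, with adjusted p of 0.238 and 0.375. Without the 2 cows farthest from the median of the member, CD8A gave 0.74 with PRF1 and 0.66 with NKG7, LCK 0.58 with PRF1 and CD6 0.59 with NKG7. By Spearman, the adjusted p of the 4 T cell markers with PRF1 was between 0.0904 (CD8A) and 0.264 (LCK). With NKG7 only CD3D stayed below 0.05 by Spearman (0.0345), and the other T cell markers named were between 0.0796 (CD8A) and 0.147 (LCK). WC1-8 gave 0.124 with PRF1 and 0.0762 with NKG7 as adjusted p by Spearman. The summed level of the 10 T cell markers was between 837 and 1292 CPM, with none at 0, and that of the gamma delta list between 57.6 and 192 CPM. The part of T cells in the levels of PRF1 and NKG7 was not tested.

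For CD244 the called markers were IL5RA and ITGA2B, and 3.85% of all genes were called for it. Its correlation with IL5RA, a receptor chain of eosinophils, was 0.82 (permutation p = 1e-05, adjusted p = 0.00191, Spearman 0.80, 0.69 without the 2 farthest cows), and that with ITGA2B, an integrin chain of platelets, was 0.76 (permutation p = 0.00014, adjusted p = 0.00813, Spearman 0.72, 0.59 without the 2 farthest cows). IL5RA was the only one of the 5 listed eosinophil markers that passed the filter. CCR3 and ALOX15 were listed at 0 in all cows, given only as listed values like that of GZMA. The summed level of the list was between 20.2 and 200 CPM. Of the 6 platelet markers only ITGA2B was called, and it was the only 1 with a positive correlation (median of the list -0.31). The others ran from -0.51 (GP9) to -0.0059 (PPBP), with ITGB3 at -0.40. The summed level of the platelet markers was between 623 and 1802 CPM, with none at 0. KLRK1 gave 0.58 with IL5RA. The part of eosinophils or platelets in the level of CD244 was not tested.

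For the remaining cell types no correlation passed. The B cell marker MS4A1 gave -0.40 with PRF1 (adjusted p = 0.639) and -0.41 with NKG7 (0.552), and 6 of 7 B cell markers were negative with PRF1 and with NKG7. The monocyte marker CD14 gave -0.51 with CD244 (adjusted p = 0.167, Spearman -0.31), but -0.042 without the 2 cows farthest from the median of CD244. The neutrophil marker CSF3R gave -0.21 with PRF1 (adjusted p = 0.867) and -0.49 with KLRK1 (0.266). Summed levels were between 913 and 1644 CPM for B cells and between 217 and 527 CPM for monocytes. They were between 2150 and 4018 CPM for neutrophils, and between 53.7 and 1097 CPM for erythroid genes. FCGR1A, a monocyte marker, was at 0 in all cows, given only as a listed value.

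**Figure D4:**
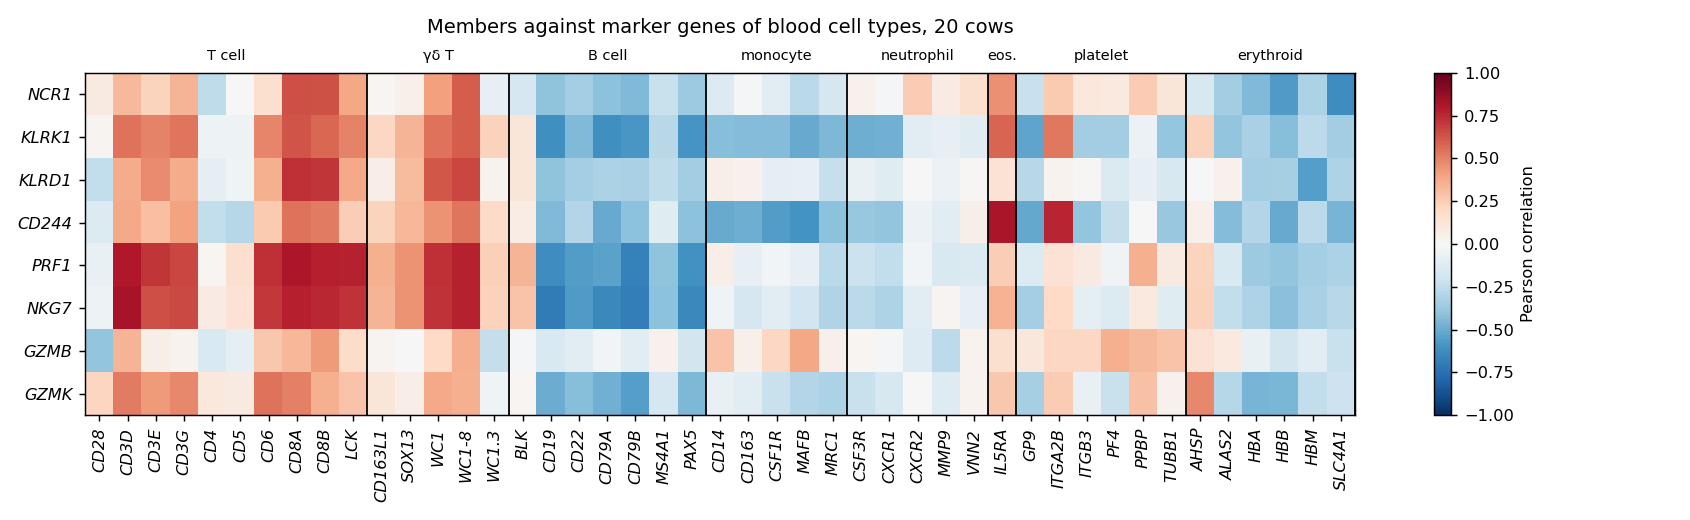
Pearson correlation of each of the 8 counted genes (rows) with marker genes of blood cell types (columns, grouped by cell type) over 20 cows, red for positive and blue for negative. PRF1 and NKG7 are darkest with CD3D, CD8A, CD8B, LCK and the gamma delta T cell marker WC1-8. CD244 is darkest with IL5RA (0.82) and ITGA2B (0.76).

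The relation to calf BW was fitted as a slope, in log2 units per kg, in the 19 cows without the 72.5 kg calf. By edgeR's quasi-likelihood test with Benjamini-Hochberg adjustment over 16206 genes, 0 of 8 members passed an adjusted p of 0.05, against 0% of all genes. DESeq2 and limma with voom also called 0 of 8. At an unadjusted p below 0.05 there were 3 members with a positive slope, where 6.78% of all genes had one, and 0 with a negative slope, where 7.08% of all genes had one. Slopes were positive for 7 of 8 members, against 46.6% of all genes, and their median was 0.0076 per kg against -0.00072 for all genes. The members share cows and correlate, so these counts are not independent.

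GZMK had the steepest slope, 0.054 per kg (SE 0.017, p = 0.0050, adjusted p = 0.188 by edgeR), a ratio of 1.46 per 10 kg with a 95% interval of 1.14 to 1.87. Leaving out 1 cow at a time kept the slope between 0.050 and 0.062, with an unadjusted p below 0.05 in 19 of 19 fits. The 3 lowest cows in the plot of levels against BW had calves of at most 43 kg. The slope rests on few reads per cow, given above.

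NCR1 had a slope of 0.023 per kg (SE 0.0087, p = 0.0134, adjusted p = 0.235 by edgeR), a ratio of 1.18 per 10 kg (95% interval 1.04 to 1.33). It was 0.017 with the cow of the 30 kg calf left out and 0.032 with that of the 32 kg calf left out. CD244 had a slope of 0.012 per kg (SE 0.0044, p = 0.0115, adjusted p = 0.224 by edgeR), a ratio of 1.09 per 10 kg (1.02 to 1.16), between 0.0092 (56 kg calf left out) and 0.016 (32 kg calf left out). Both had an unadjusted p below 0.05 in 18 of 19 such fits. IL5RA and ITGA2B, the markers that moved with CD244, had slopes of 0.053 (p = 0.0102, adjusted p = 0.216 by edgeR) and 0.021 (p = 0.00647, adjusted p = 0.196). Of the 6 platelet markers 4 had positive and 2 negative slopes, and only ITGA2B had an unadjusted p below 0.05. Among the erythroid markers, 5 of 6 had negative slopes, and that of the globin gene HBB was -0.072 per kg (p = 0.0322, adjusted p = 0.307 by edgeR). HBB correlated at -0.57 with NCR1 (permutation p = 0.00934, adjusted p = 0.340), -0.50 with CD244 (permutation p = 0.0230, adjusted p = 0.174) and -0.46 with GZMK (permutation p = 0.0419, adjusted p = 0.530). AHSP, of the same list, went the other way with GZMK at 0.48 (permutation p = 0.0334, adjusted p = 0.514), and gave 0.053 with CD244 and -0.16 with NCR1. Levels of several erythroid genes were near the floor, with medians of 0.45 (HBA), 0.16 (HBM), 0.57 (AHSP) and 0.12 CPM (SLC4A1). All 7 B cell, all 5 gamma delta T cell and all 5 monocyte markers tested had negative slopes, 0 of them at an unadjusted p below 0.05, while 46.6% of all genes had a positive slope. The part of these cells in the slopes of the members was not tested.

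The other receptors and the granule genes had intervals that included no change. The ratio per 10 kg was 1.10 for KLRK1 (95% interval 0.954 to 1.26, adjusted p = 0.583 by edgeR), 0.954 for KLRD1 (0.857 to 1.06, 0.742), 1.02 for GZMB (0.913 to 1.14, 0.916), 1.02 for NKG7 (0.871 to 1.20, 0.937) and 1.01 for PRF1 (0.860 to 1.18, 0.983). The signs for GZMB, NKG7 and PRF1 turned when single cows were left out. Whether the slope of GZMK differs from those of the other granule genes was not tested.

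**Figure D5:**
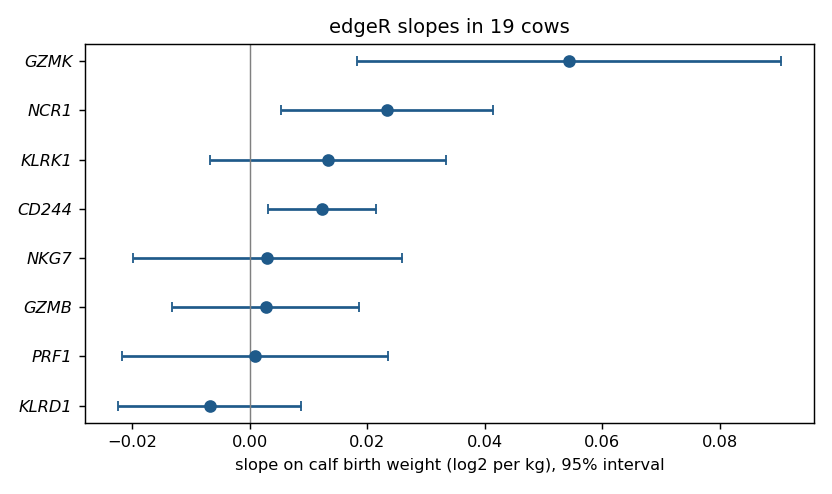
Slope of each counted gene on calf BW in log2 units per kg (points) with its 95% interval (bars) in 19 cows, from edgeR. The intervals of GZMK, NCR1 and CD244 lie above 0, those of the other 5 genes include 0, and no slope passed the adjustment over all genes.

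With all 20 cows, the 72.5 kg calf included, the Pearson r of CD244 and BW was 0.57 (permutation p = 0.00802, adjusted p = 0.255, Spearman 0.58 with permutation p = 0.00901), and 0.50 without the 2 cows farthest from the median BW. NCR1 gave 0.51 (permutation p = 0.0219, adjusted p = 0.300, Spearman 0.51 with permutation p = 0.0230, 0.44 without the 2 cows). GZMK gave 0.47 (permutation p = 0.0351, adjusted p = 0.332, Spearman 0.62 with permutation p = 0.00447, 0.56 without the 2 cows). For the other 5 members the correlation was between -0.17 (KLRD1) and 0.27 (KLRK1). By the permutation test 0 of 8 members passed the adjustment, while 0.0246% of all genes passed it. At an unadjusted p below 0.05 there were 3 members, and the share of all genes at that threshold was not counted for this test. No sequencing batch is named in the labels, so no value within batches could be given.

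Other genes of these cells, in 9 lists that cover receptors, adaptors, granule proteins, granule release, transcription factors, cytokine receptors, effector cytokines, homing receptors and ligands, were fitted in the same way. Of 64 genes in the files 59 were tested, 37 with a positive slope (46.6% of all genes had one) and 22 with a negative slope, at a median of 0.0017 per kg, and 0 passed an adjusted p of 0.05 by edgeR (voom 0, DESeq2 1). At an unadjusted p below 0.05 there were 4 of 59 positive, near the 6.78% of all genes, and 1 of 59 negative, against 7.08% of all genes. NFIL3, a transcription factor needed for natural killer cell development, had the smallest p, with a level between 32.2 and 81.5 CPM and a slope of 0.031 per kg (p = 0.000637, adjusted p = 0.111 by edgeR and 0.0179 by DESeq2). IL18R1, a receptor chain for IL-18, had a slope of 0.020 (p = 0.0116, adjusted p = 0.224 by edgeR).

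On the negative side, IL21R, the receptor for IL-21, had a slope of -0.017 (p = 0.0143, adjusted p = 0.243 by edgeR) and NCR3, the receptor NKp30, -0.0088 (p = 0.0730, adjusted p = 0.422). SRGN, the proteoglycan that packs granules, had a mean level of 2239 CPM, and LTA, the cytokine lymphotoxin alpha, one of 0.297 CPM. CTSW, CX3CR1 and ULBP3 were listed at 0 in all cows and, like GZMA, are nested in other genes in the table.

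Across cows, correlations with the genes of these lists were called for PRF1, NKG7 and CD244. PRF1 correlated at adjusted p below 0.05 with 9 of the 59 genes (0.277% of all genes): IL2RB (0.90), CCL5 (0.84), CD96 (0.82), S1PR5 (0.81), SLAMF7 (0.80), IL12RB1 (0.79), CCL4 (0.78), SH2D1A (0.76) and IFNG (0.76). NKG7 did so with 8 of 59 (0.4% of all genes): IL2RB (0.89), CCL5 (0.88), CD96 (0.83), GNLY (0.80), IL12RB1 (0.78), SLAMF7 (0.77), ZAP70 (0.75) and CD2 (0.72). These include receptors for IL-2 and IL-12, which activate killer cells, and granulysin (GNLY), a granule protein that kills microbes. CD244 did so with 4 of 59 (3.85% of all genes), ID2 (0.76), IL18R1 (0.73), UNC13D (0.67) and SRGN (0.64), while NCR1, KLRK1, KLRD1, GZMB and GZMK had 0 called among the 59 by the permutation test. Of the 9 genes called with PRF1, only IL2RB and CCL5 also had an adjusted p below 0.05 by Spearman (0.0325 each). The rest were between 0.0954 (CD96 and SLAMF7) and 0.356 (CCL4) by Spearman. IFNG was near the floor, between 0 and 1.58 CPM.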

How the data were processed

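Whole blood of 20 cows was sequenced as 1 library per cow. Per the methods and labels, Trimmomatic was used for trimming, STAR 2.7.0b for alignment to bosTau9 and featureCounts (Subread 2.0.3) for counting, and the deposited values are raw counts per Entrez identifier. The strand setting is not given in the sources used here, and the kit is named as TruSeq in the methods and SMARTer in the labels. Total counts, 24632077 to 39892111 per cow, set the counting error. Names came from the ARS-UCD2.0 table, whose coordinates are not printed, and 37063 of 37063 identifiers matched.

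Slopes on BW in 19 cows came from the quasi-likelihood test of edgeR 4.0.16 (R 4.3.3) after TMM, for genes reaching 10 counts in 5 cows or more. Correlations used log2(CPM + 1) in 20 cows, with two-sided permutation tests (100000 resamples) and Benjamini-Hochberg adjustment over all genes. DESeq2 1.42.0, limma 3.58.1, other filters and scalings, all 20 cows, rank of BW and leaving out each cow were alternatives. Alternatives for the unadjusted counts and the named pairs were added after seeing the data. Both steps were tested on simulated data. The members and lists were chosen with earlier results of these data known. Genes named are the members, the 15 with the highest mean correlation, the 3 closest to each member, the 4 highest and 4 lowest pairs, set markers, and list genes by p or level; others called by a test, and PRF1 with GZMB, were named after their values were seen. One gene that this rule names is not reported here. Listed symbols absent from the table (such as KLRI1, GZMH and TRDC) were not analysed here.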

Additional observations from a re-analysis of the deposited data

How the results depend on the processing

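No member passed an adjusted p of 0.05 for calf BW in edgeR, DESeq2 or voom, under either filter, either scaling, all 20 cows, the rank of BW or without any 1 cow. The number of all genes that passed did change: it was 0 by edgeR, 189 by DESeq2, 147 with every gene with any count, 4 with all 20 cows, and between 0 and 34 without 1 cow (34 when the cow left out bore the 32 kg calf). The cause was not tested. Of the genes in the natural killer and cytotoxic lists, 0 passed by edgeR and 1 by DESeq2 (NFIL3). Without 1 cow, the slope ran from -0.0025 to 0.0098 for GZMB, from -0.0018 to 0.015 for NKG7 and from -0.0041 to 0.0125 for PRF1, so the sign of these 3 is not fixed. The correlation of PRF1 with BW was -0.0039 without the 2 cows farthest from the median BW. Without 1 cow, the median slope of the members ran from 0.0054 to 0.0156, the number with an unadjusted p below 0.05 from 2 to 3, and the median correlation between members from 0.447 to 0.557; GZMB with GZMK ran from 0.0792 (35 kg calf's cow left out) to 0.392. The low counts of GZMK, 13 to 114 per cow, limit its precision. No paired analysis was possible because all cows belong to 1 group.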
